A study of Mus musculus with 7 samples.

Results

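The nuclear-encoded subunits of mitochondrial complex I were followed in the arcuate nucleus of Dusp8-deficient and control mice. They were taken as the array probes whose annotated symbol is Ndufa, Ndufb, Ndufc, Ndufs or Ndufv followed by a number only, or Ndufab1, which left out the assembly factors named Ndufaf. The rule found 44 probes for 34 genes among the 25697 probes of the signal table, whose annotation names 16593 genes. Of these, 41 probes for 33 genes were tested, on the condition that 3 or more of the 7 arrays detected the probe (p below 0.05). The animals were 4 male C57BL/6J mice labelled Dusp8-deficient, and 3 male C57BL/6J littermates labelled control. All 7 were 40 weeks old, had been moved at 8 to 10 weeks of age from chow to food that drew 45% of its calories from fat, and had stayed on it for 30 weeks. The labels do not say how Dusp8 was inactivated or in which cells, and each array holds the RNA of a piece of tissue with many cell types, so fewer cells of a type and less RNA per cell cannot be told apart. The comparison asks which transcripts differ when Dusp8, a phosphatase of mitogen-activated protein kinases such as Jnk, is missing in fat-fed mice.

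Complex I, NADH:ubiquinone oxidoreductase, is the entry point of electrons from NADH into the respiratory chain. It is an L-shaped assembly in the inner mitochondrial membrane. The arm that projects into the matrix binds NADH at its tip (N module) and passes electrons over a flavin and a row of iron-sulfur clusters to ubiquinone (Q module), and the membrane arm pumps protons. Its core subunits are shared with bacteria, and the membrane-embedded core subunits are encoded by mitochondrial DNA and were not analysed here. The many accessory subunits are nuclear-encoded and serve in assembly and stability. Neurons rely heavily on oxidative phosphorylation for ATP, and loss of single subunits causes Leigh syndrome, a disease of brainstem and basal ganglia.

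Arrays keep their headings from the deposited table: the Dusp8-deficient ones are ko_108, ko_125, ko_148 and ko_168, and the control ones wt_136, wt_145 and wt_177. The signal of Dusp8 was 77 to 104 units with Dusp8 deficiency and 540 to 624 units in controls, and its log2 difference was -2.52 (SE 0.23, limma, adjusted p = 0.00963). The size held between -2.65 and -2.40 with any 1 array left out, but the call did not: the adjusted p (limma) was 0.0732 without ko_148, 0.0574 without ko_168, 0.116 without wt_136, 0.0999 without wt_145 and 0.118 without wt_177. It was also 0.141 without the filter on dim probes and 0.411 with the own variance of each probe. The array ko_108 stood apart in its cell type markers. The summed normalised signal of 9 oligodendrocyte markers was 8543 in ko_108, 2855 to 4208 in the rest of the Dusp8-deficient group and 2623 to 3714 in the controls. Its sum of 10 markers of arcuate neurons was 2084, the lowest of the 7 arrays, and the other arrays lay between 3515 and 4833. The markers of the labelled tissue were uneven. Npy was at 46 (ko_108) to 739 units in Dusp8-deficient mice and at 402 to 945 units in controls. Sst was at 1091 to 1172 units and at 1091 to 1630 units in the same groups. Ghrh was at 5 units in ko_108, at 278 to 439 units in the other Dusp8-deficient arrays and at 265 to 416 units in controls. Cartpt was at 333 units in ko_108, at 1671 to 1890 units in the other Dusp8-deficient arrays and at 1479 to 1794 units in controls. In the same order, Th was at 4, at 22 to 56 and at 40 to 53 units, and Tbx3 at 35, at 117 to 183 and at 87 to 224 units. Pomc was dim, at 5 to 19 units in Dusp8-deficient mice and at 5 to 62 units in controls. Kiss1, Tac2 and Nr5a2 were dim too, with at most 37 units in any array, and Agrp was not matched to a probe.

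No complex I subunit gene passed the test between Dusp8-deficient and control arrays. On the brightest tested probe of each gene, 16 of 33 log2 differences were above 0 and 17 below, or 48.5% above, and over all 14067 tested probes 49.7% were above. The median difference was -0.007 log2 units for the subunits and -0.002 for all tested probes. Over all tested probes, 0.00711% passed at an adjusted p of 0.05, which is Dusp8 alone. No subunit had an adjusted p under 0.996 (limma, Benjamini-Hochberg over all tested probes). At an unadjusted p below 0.05 there was 1 subunit of 33, Ndufa1, against 4.81% of all tested probes (2.31% higher and 2.5% lower in Dusp8-deficient arrays). The groups did not overlap for the same 1 gene, or 3.03% of the 33, against 5.57% of all tested probes (2.78% with the Dusp8-deficient arrays above and 2.79% with them below). Both shares are near or under those of the whole array.

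The spread among replicates set how small a difference could be seen. The SD within groups had a median of 0.26 log2 units over the 33 genes and 0.34 over all tested probes. The 95% interval of the difference lay within 1.5-fold either way for 12 of the 33 genes (36.4%), against 18.6% of all tested probes, and within 2-fold for 28 (84.8%), against 76.8%. For the 5 other genes, Ndufa1, Ndufa2, Ndufa9, Ndufb9 and Ndufc1, the interval reached past 2-fold on its upper side. Each subunit gene is counted here by its brightest tested probe, while the values over all tested probes include every tested probe of a gene. The intervals are not adjusted for the number of probes tested.

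**Figure D1:**
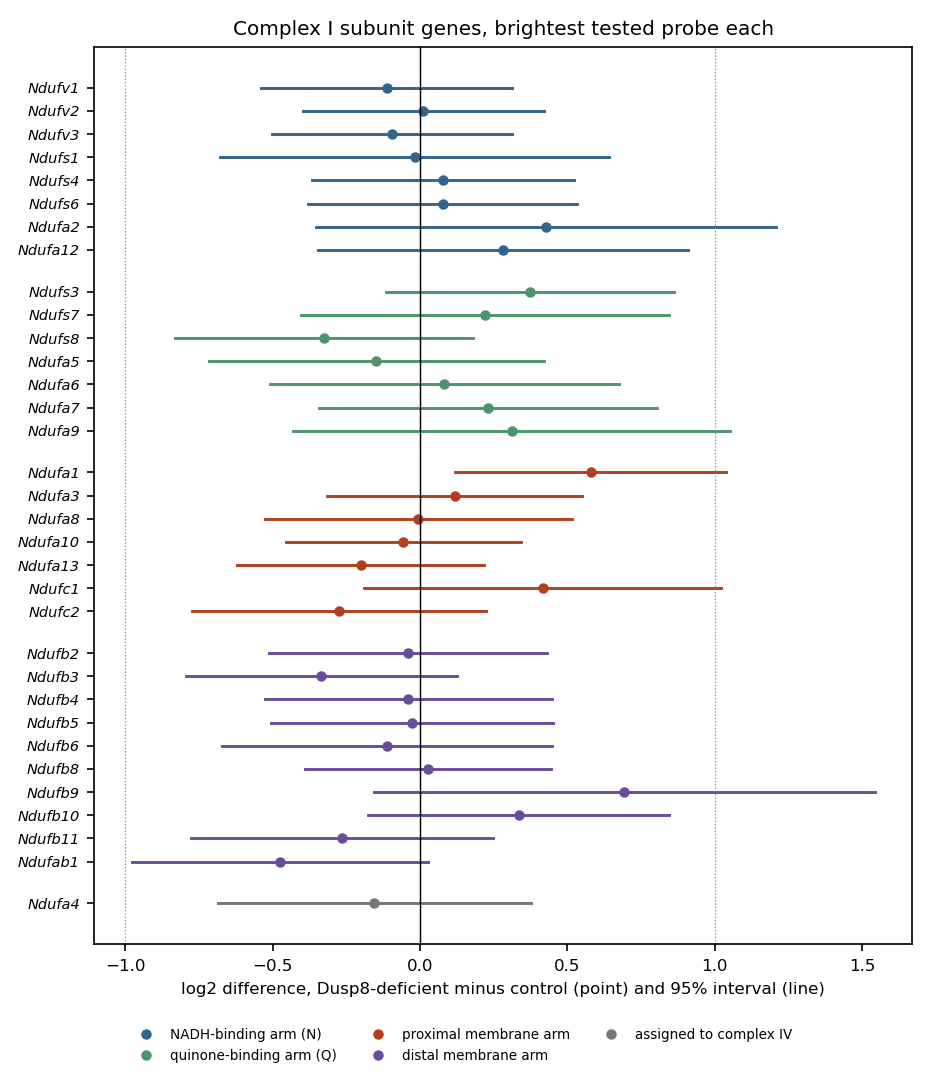
Log2 difference, Dusp8-deficient minus control, of each of the 33 tested complex I genes (point) with its 95% interval (line), grouped by the part of the complex; the vertical axis lists the genes and the dotted lines mark 2-fold. The points lie on both sides of 0, and of the 33 intervals only that of Ndufa1 leaves out 0; it did not pass after adjustment.

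In the N module, where NADH is oxidised, 5 of 8 tested genes read above 0 and the median difference was 0.04 log2 units. With 1 array left out the median ran from -0.029 (without ko_168) to 0.11 (without ko_125), and the count above 0 from 2 to 6 of 8. Ndufv1, which carries the NADH site and the flavin, had log2 levels of 9.44, 9.21, 9.59 and 9.43 in the Dusp8-deficient arrays in the order ko_108, ko_125, ko_148 and ko_168, and of 9.38, 9.63 and 9.57 in wt_136, wt_145 and wt_177. The groups overlapped, and the difference was -0.11 (SE 0.19, 95% interval -0.54 to 0.31). Ndufv2, an iron-sulfur subunit next to it, read 10.42, 10.22, 10.38 and 10.51 in the Dusp8-deficient arrays and 10.28, 10.41 and 10.42 in the controls, in the same order. Its difference was 0.011 (SE 0.18), and its interval of 0.759-fold to 1.34-fold was among the narrowest of the complex. Ndufs1, the largest subunit of the matrix arm and the holder of several iron-sulfur clusters, varied widely among the Dusp8-deficient mice, at 6.79, 6.33, 7.13 and 7.66, and little among the controls, at 6.96, 6.97 and 7.06. All controls lay inside the Dusp8-deficient range, and the difference was -0.019 (SE 0.30). Among the accessory subunits of this module, Ndufa12 read 0.28 (SE 0.28), with ko_108 and ko_125 above every control and ko_168 below every control. Ndufa2 read 0.43 (SE 0.35) on a dim probe of 10 to 61 units in Dusp8-deficient mice and of 14 to 22 units in controls, and ran from 0.23 without ko_108 to 0.73 without ko_148. Ndufs6 read 0.08 (SE 0.20) and Ndufv3 -0.10 (SE 0.18).

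In the Q module, which reduces ubiquinone, 5 of 7 tested genes read above 0 and the median difference was 0.22 log2 units. That median rested on single arrays: it was 0.03 without wt_177, 0.07 without ko_168 and 0.09 without ko_125, and at most 0.21 with any 1 array left out. Ndufs3, a core subunit that nucleates this module, read 5.11, 4.86, 5.47 and 5.47 in the Dusp8-deficient arrays and 4.75, 4.83 and 4.995 in the controls. Only ko_125 fell inside the control range, and the difference was 0.37 (SE 0.22, 95% interval -0.12 to 0.86), without passing. Its probe was dim, at 16 to 31 units in Dusp8-deficient mice and at 12 to 14 units in controls. Ndufs8, an iron-sulfur core subunit, read 6.86, 7.30, 7.02 and 6.92 in the Dusp8-deficient arrays and 6.95, 7.54 and 7.56 in the controls. Here wt_136 lay among the Dusp8-deficient values, and the difference was -0.33 (SE 0.23, 95% interval -0.83 to 0.18). Ndufs7, which holds the last iron-sulfur cluster before ubiquinone, read 7.30, 6.55, 7.01 and 7.56 in the Dusp8-deficient arrays and 6.74, 6.63 and 7.28 in the controls, with a difference of 0.22 (SE 0.28). Among the accessory subunits, Ndufa6, which binds the acyl carrier protein in this arm, read 0.08 (SE 0.27), Ndufa7 0.23 (SE 0.26) and Ndufa9, at the junction of the arms, 0.31 (SE 0.33). The Ndufa9 probe was detected in 2 of 3 controls, and its difference ran from 0.03 without wt_177 to 0.66 without wt_145, with 0.09 without ko_125.

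Of the 6 tested core subunits of both modules, 3 read above 0 and 3 below, with a median of -0.004 log2 units. None passed.

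The part of the membrane arm next to the matrix arm held the 1 subunit gene whose groups did not overlap. Ndufa1, a small X-linked membrane protein needed for assembly of the arm, had signals of 95, 174, 128 and 127 units in ko_108, ko_125, ko_148 and ko_168, and of 92, 85 and 56 units in wt_136, wt_145 and wt_177. Every Dusp8-deficient array lay above every control, though ko_108 and wt_136 were 3 units apart. On the normalised scale the mean was 7.15 ± 0.20 log2 units in Dusp8-deficient mice (SD, n = 4) and 6.57 ± 0.21 in controls (SD, n = 3). The difference was 0.58 (SE 0.21, 95% interval 0.12 to 1.04), or 1.49-fold, with an unadjusted p of 0.0185 and an adjusted p of 0.996 (limma), so that it did not pass. The difference was between 0.46 and 0.64 with any 1 array left out, and between 0.45 and 0.64 over all 19 alternatives. Ndufa1 is read by 1 probe, ILMN_1251370, so no second probe can be set beside it.

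Of the 7 tested genes of this stretch of the membrane arm, Ndufa1 included, 3 read above 0 and the median was -0.007. Ndufa13, also known as Grim19 and described as a cell death regulator as well as a subunit, read -0.20 (SE 0.19), Ndufa10 -0.06 (SE 0.18), Ndufa3 0.12 (SE 0.19) and Ndufc2 -0.28 (SE 0.22). Ndufa10 had the smallest spread of all 33 genes, with an SD within groups of 0.08 log2 units, and its levels were 9.36 to 9.53 in the Dusp8-deficient arrays and 9.40 to 9.56 in the controls.

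In the distal membrane arm, 3 of 10 tested genes read above 0 and the median difference was -0.041 log2 units. Without ko_125, 6 of 10 read above 0 and the median was 0.028, and without ko_168 the median was -0.136, so neither the count nor the sign is stable to the loss of 1 array. Ndufab1, the mitochondrial acyl carrier protein, serves in complex I and also in mitochondrial fatty acid synthesis and iron-sulfur cluster assembly. It had signals of 9, 17, 21 and 22 units in the Dusp8-deficient arrays and 23, 32 and 30 units in the controls. These signals did not overlap, but after normalisation the log2 levels of 4.75, 4.83, 5.13 and 5.37 with Dusp8 deficiency and of 5.24, 5.60 and 5.64 in controls did, through ko_168 and wt_136. The difference was -0.48 (SE 0.23, 95% interval -0.98 to 0.03). Ndufb9, which binds the acyl carrier protein, read 55, 22, 6 and 11 units in the Dusp8-deficient arrays and 10, 4 and 1 units in the controls, and was detected in 1 of 3 controls. It passed the filter through the Dusp8-deficient arrays, all 4 of which detected it, so its difference is set against controls mostly not above background. The difference was 0.69 (SE 0.38), and 0.32 without ko_108, the array that was also highest in oligodendrocyte markers. The part of those markers in this value was not tested. Ndufb3 read 5.03, 5.46, 5.24 and 5.11 in the Dusp8-deficient arrays and 5.51, 5.33 and 5.79 in the controls, and ko_125 lay above wt_145. Its difference was -0.335 (SE 0.21). Ndufb10 read 8.03, 7.72, 7.83 and 8.22 in the Dusp8-deficient arrays and 7.74, 7.88 and 7.24 in the controls, with wt_177 below all others and a difference of 0.335 (SE 0.23) that became 0.15 without wt_177. Ndufb8, whose protein is lost early when the complex fails to assemble and which is therefore often used as its marker, read 11.74 ± 0.14 in Dusp8-deficient mice (SD, n = 4) and 11.71 ± 0.10 in controls (SD, n = 3), a difference of 0.028 (95% interval -0.39 to 0.45). Ndufb2, Ndufb4, Ndufb5 and Ndufb6 read between -0.11 and -0.028, and Ndufb11 -0.27 (SE 0.23) on a probe of at most 17 units. Ndufb7 was not tested, with detection in 0 of 4 arrays from Dusp8-deficient mice and in 1 of 3 from controls. Ndufa4, which carries a complex I name but is now assigned to complex IV, read -0.155 (SE 0.24).

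**Figure D2:**
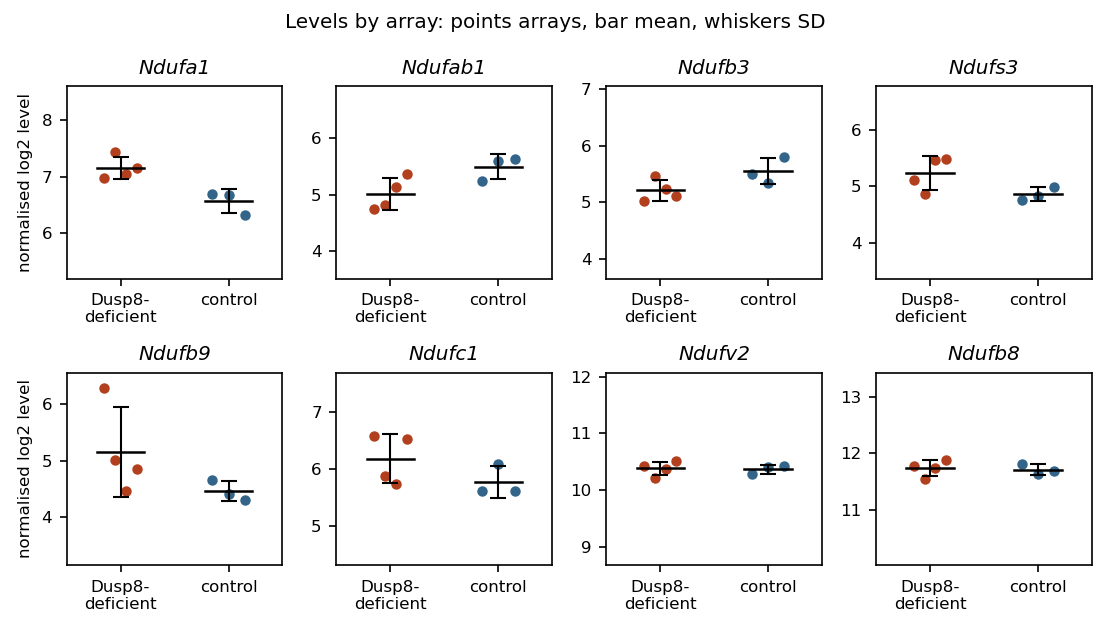
Normalised log2 level (vertical axes) of 8 complex I genes in the 4 Dusp8-deficient and 3 control arrays; points are arrays, bars means and whiskers SD. The groups are separate for Ndufa1, overlap at their edges for Ndufab1, Ndufb3 and Ndufs3, and lie on top of each other for Ndufv2 and Ndufb8; for Ndufb9, ko_108 lies at 6.29, above all other arrays.

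Several probes read 6 of these genes, and in 4 of them the probes differed in sign. Ndufs4, whose loss in mice gives a model of Leigh syndrome, has 4 tested probes. The 3 brighter ones read 0.08, 0.13 and 0.20 log2 units, and the dimmest, ILMN_2900025, read -0.51 (SE 0.27) with 24, 55, 19 and 15 units in the Dusp8-deficient arrays and 32, 44 and 49 units in the controls. The brightest Ndufs4 probe had levels of 8.66, 8.80, 8.95 and 9.17 in the Dusp8-deficient arrays and of 8.72, 8.83 and 8.90 in the controls, all within the Dusp8-deficient range. Ndufc1 read 0.42 (SE 0.27) on its brighter probe, with levels of 6.58, 5.88, 5.74 and 6.54 in the Dusp8-deficient arrays and 5.60, 6.09 and 5.61 in the controls, but -0.13 (SE 0.19) on the other. The signals of that other probe overlapped, at 32, 46, 32 and 29 units in the Dusp8-deficient arrays and 39, 32 and 41 units in the controls. Ndufa5, of the Q module, had 211, 170, 170 and 118 units on its brighter probe with Dusp8 deficiency and 216, 152 and 167 units in controls, a difference of -0.15 (SE 0.25). Its dimmer probe had 14, 42, 26 and 13 units with Dusp8 deficiency and 14, 14 and 19 units in controls, a difference of 0.22 (SE 0.23). By signal ko_168 was the lowest array on both probes, while the highest was wt_136 on the brighter and ko_125 on the dimmer. After normalisation the highest on the brighter probe was ko_108, and the lowest on the dimmer probe was wt_136. For Ndufv3, of the N module, the brighter probe had 262, 343, 413 and 328 units in Dusp8-deficient mice and 367, 333 and 314 units in controls, and the other had 189, 281, 345 and 325 units in Dusp8-deficient mice and 275, 236 and 265 units in controls. The differences were -0.10 and 0.028, and ko_108 was the lowest and ko_148 the highest by signal on both probes. After normalisation the lowest on the brighter Ndufv3 probe was ko_168, at 8.31 against 8.355 in ko_108. For Ndufa8, an intermembrane-space subunit, the brighter probe had 136, 216, 194 and 111 units with Dusp8 deficiency and 142, 149 and 171 units in controls, and the dimmer had 31, 36, 18 and 18 units with Dusp8 deficiency and 45, 11 and 46 units in controls. The differences were -0.007 and -0.25, and on both probes the groups overlapped. Ndufb6 had 327, 287, 273 and 199 units on its brighter probe in Dusp8-deficient mice and 260, 320 and 257 units in controls, and 55, 39, 26 and 25 units on the other in Dusp8-deficient mice and 21, 50 and 44 units in controls. Its differences were -0.11 and -0.105, with ko_108 the highest array on both probes. The middle probes of Ndufs4 had 286, 307, 310 and 365 units and 140, 286, 239 and 184 units in Dusp8-deficient mice, against 286, 278 and 247 units and 166, 139 and 208 units in controls. None of these probes passed. The transcripts that each one reads were not examined.

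**Figure D3:**
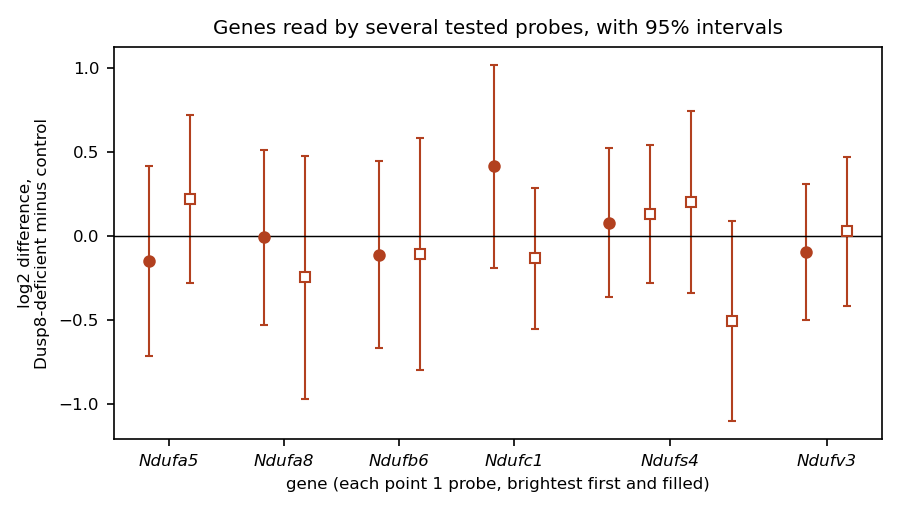
Log2 difference, Dusp8-deficient minus control (vertical axis), of each tested probe of the 6 complex I genes with more than 1 tested probe; filled circles are the brightest probes, open squares the others and lines 95% intervals. All intervals include 0, and the probes of Ndufa5, Ndufc1, Ndufs4 and Ndufv3 lie on both sides of it.

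Among the Dusp8-deficient mice, ko_168 and ko_125 lay at the ends of the range for many subunits. Array ko_168 held the highest level of 12 of the 33 genes (36.4%), against 18.6% of all tested probes, and ko_125 held the lowest level of 8 (24.2%), against 12.3%. At the other end, ko_168 held the lowest level of 6 (18.2%), against 17.9%, and ko_125 the highest of 4 (12.1%), against 14.5%. The median deviation from each gene's mean was 0.10 log2 units in ko_168 and -0.12 in ko_125, both Dusp8-deficient, and between -0.072 and 0.048 in the controls. The mean deviation ordered the arrays otherwise. By that measure ko_108 (0.096) lay above ko_168 (0.085), and ko_148 (-0.063) and wt_136 (-0.076) lay below ko_125 (-0.038). Of the 6 core subunits, Ndufv2, Ndufs1, Ndufs3 and Ndufs7 were highest in ko_168, Ndufv1, Ndufv2, Ndufs1 and Ndufs7 were lowest in ko_125, and the medians were 0.27 and -0.23 in these arrays, against -0.16 to 0.09 in the controls. The summed signal of 11 neuron markers was 2308 to 2920 in the Dusp8-deficient arrays, with its lowest value in ko_125 and, of this group, its highest in ko_168, and 2577 to 3393 in the controls, with its highest in wt_177. Of these 11 markers 4 read above 0, and none was at background in every array. The sum leans on Eno2, the brightest of the 11, at log2 levels of 10.20 in ko_125 and 10.72 in ko_168. By the median deviation of the neuron markers, however, ko_125 and ko_168 were both low, at -0.24 and -0.18. The part of neuron content in the subunit levels was not tested. Without ko_168, 14 of 33 subunits read above 0, and without ko_125, 20 did.

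**Figure D4:**
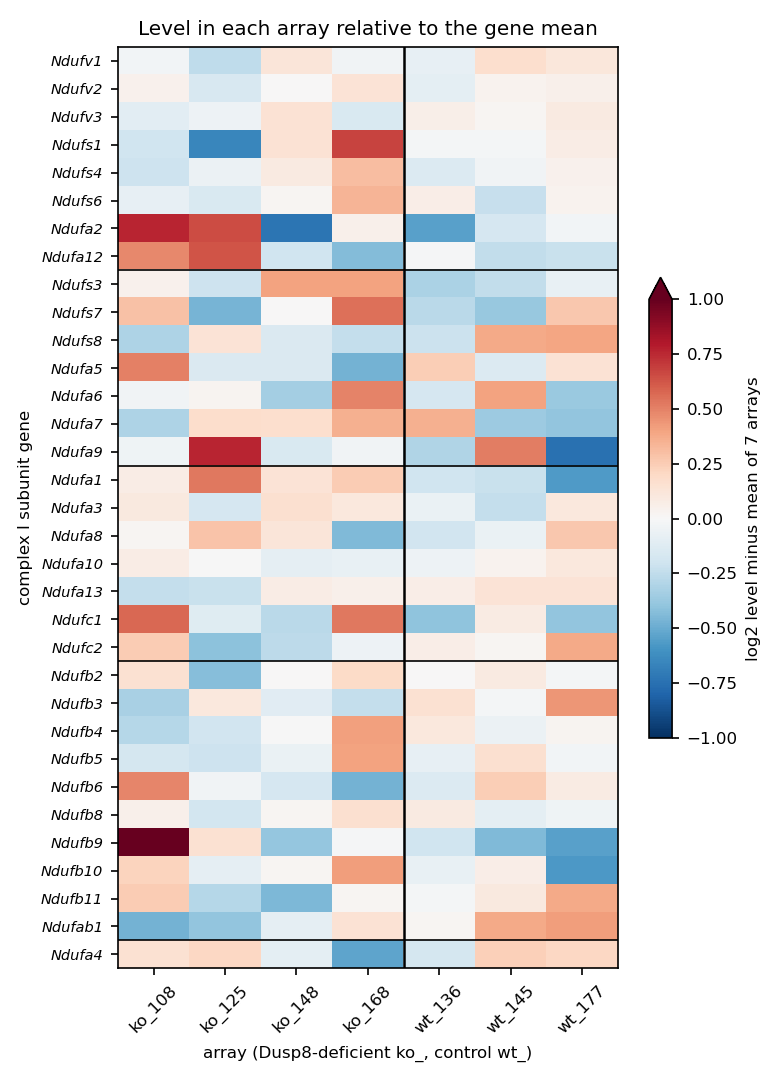
Level of each complex I gene (rows, grouped by part of the complex) in each array (columns, Dusp8-deficient left, control right), as log2 level minus the mean of the 7 arrays; red is above and blue below the gene's mean, and values over 1 (Ndufb9 in ko_108, at 1.43) are drawn at the end of the scale. Both colours occur on both sides of the line between the genotypes, and ko_168 and ko_125 differ over many rows.

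No gene of the lists around complex I passed. Of 14 tested assembly factors, which build the complex and are not part of it, 4 read above 0 and 10 below, with a median of -0.08 log2 units. With 1 array left out and the rest normalised again, 5 to 6 read above 0 and the median ran from -0.116 to -0.025. On its brighter tested probe, Ndufaf7, a mitochondrial methyltransferase, read -0.53 (SE 0.28). That probe had 3 to 16 units in Dusp8-deficient mice and 12 to 40 units in controls. The 40 units were those of wt_145, and wt_136 and wt_177 had 12 each. All 3 controls cleared the detection limit there, but only 2 of the 4 mice with Dusp8 deficiency did. The dimmer tested Ndufaf7 probe, of at most 9 units in any array, read -0.06 (SE 0.18). Ndufaf5 read 0.38 (SE 0.25) and Ndufaf1 -0.39 (SE 0.33). Of 15 tested regulators of mitochondrial biogenesis, 8 read above 0 and the median was 0.003. Among them Ppargc1a, the coactivator that drives biogenesis, read 0.24 (SE 0.29), Nrf1, a transcription factor for respiratory chain genes, -0.10 (SE 0.36), and Esrra 0.14 (SE 0.32). Those of smallest p were Nfe2l2 at -0.51 (SE 0.28), Tfb2m at 0.34 (SE 0.20) and Gabpb2 at 0.32 (SE 0.28).

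The subunits of complexes II to V did not pass either. Of 36 tested genes, 26 (72.2%) read above 0, against 49.7% of all tested probes. The median over the 36 was 0.12 log2 units, against -0.002 over all tested probes. With 1 array left out the count stayed between 24 and 26, and without ko_108 the median was 0.07. Array ko_108 held the highest level of 14 of these 36 genes (38.9%) and of 5 of the 33 complex I genes (15.2%). Over all tested probes its share was 18.1%. The groups did not overlap for 1 of the 36, Cox6c of complex IV, or 2.78% against 5.57% of all tested probes. Smallest in p were Atp5e at 0.48 (SE 0.24) and Atp5g1 at 0.49 (SE 0.24), both of the ATP synthase, and Sdhb of complex II at 0.39 (SE 0.23). Whether the sets of subunits differ from each other was not tested.

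**Figure D5:**
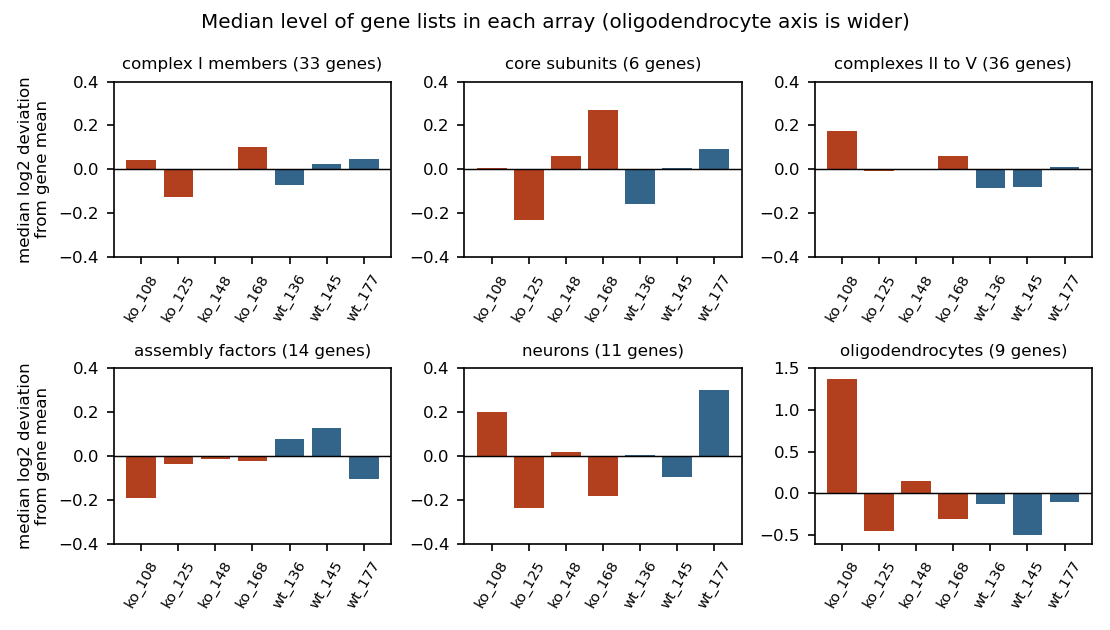
Median over the genes of a list of the log2 deviation from each gene's mean over 7 arrays (vertical axes), for each array, Dusp8-deficient in red and control in blue. The complex I core subunits are highest in ko_168 (0.27) and lowest in ko_125 (-0.23), while the oligodendrocyte markers reach 1.37 in ko_108.

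Promoter sequence was read for the subunit genes, because regulators of respiratory genes such as Nrf1 bind there. A window from 250 bases before to 50 bases after the start was found for 31 of the 34 genes in RefSeq (GRCm38.p6). All motifs were searched on both strands. A subunit gene counted if any of its windows matched, with 33 windows for the 31 genes. The share over all windows is by window and was not matched for GC content. The GC-rich consensus of Nrf1, whose matches can be read in the sequences below, was in 5 of 31 genes (16.1%), against 4.6% of 32851 windows. The motif of Yy1, AANATGGCG, was in 7 (22.6%), against 2.38%, and 5 of its 7 matches began after the start. An ETS motif as bound by Gabpa, CCGGAAGT, was in 1, Ndufs3, against 3.89% of windows. The motif of estrogen-related receptors, TNAAGGTCA, was in 1, Ndufb4, against 1.28%, and TATAAA was in 4 (12.9%), against 13.6%. A match is a run of letters and was not tested as a binding site. The windows of 10 of the 31 genes overlapped another annotated gene. Among the genes with a match, these were Ndufa7, Ndufa8, Ndufb11, Ndufs3, Ndufs6 and Ndufs7. The 250 bases before the start are given for Ndufb4, which holds the most matches, for Ndufa5, which holds 1 Nrf1 match in the window shown, and for Ndufab1, the subunit of smallest p below 0, which holds none; matches are in capitals. All 3 lie on the minus strand of GRCm38.p6, at chr16:37654369-37654618 for Ndufb4, chr6:24527691-24527940 for Ndufa5 and chr7:122101849-122102098 for Ndufab1.
Ndufb4: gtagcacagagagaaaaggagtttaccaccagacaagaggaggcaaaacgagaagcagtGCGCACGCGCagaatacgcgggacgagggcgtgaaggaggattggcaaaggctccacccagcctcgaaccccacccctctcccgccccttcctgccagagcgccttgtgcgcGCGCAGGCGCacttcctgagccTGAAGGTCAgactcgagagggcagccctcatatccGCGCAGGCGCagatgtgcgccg
Ndufa5: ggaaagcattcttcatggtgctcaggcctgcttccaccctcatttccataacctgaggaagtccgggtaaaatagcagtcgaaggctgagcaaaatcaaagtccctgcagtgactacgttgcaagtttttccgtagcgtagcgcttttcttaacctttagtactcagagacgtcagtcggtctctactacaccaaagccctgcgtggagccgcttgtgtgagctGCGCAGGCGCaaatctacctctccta
Ndufab1: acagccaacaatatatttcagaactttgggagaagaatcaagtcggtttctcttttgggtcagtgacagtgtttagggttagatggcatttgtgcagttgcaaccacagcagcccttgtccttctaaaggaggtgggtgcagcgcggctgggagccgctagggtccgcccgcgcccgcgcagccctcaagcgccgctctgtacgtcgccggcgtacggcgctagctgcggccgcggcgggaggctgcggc
In Ndufb4 the Nrf1 matches begin 191, 79 and 22 bases before the start, and the estrogen-related receptor match begins 57 bases before it. In Ndufa5 the match begins 26 bases before the start. Ndufb4 had log2 levels of 9.15, 9.24, 9.43 and 9.84 in the Dusp8-deficient arrays and 9.53, 9.37 and 9.46 in the controls, all of them within the Dusp8-deficient range, and its difference was -0.040 (SE 0.22). Ndufa1 shares its window with Rnf113a1, and the base directly before its start lies in an annotated gene. These 5 motifs were not found in that window.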

How the data were processed

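Total RNA of 7 arcuate nucleus samples was amplified and biotin-labelled, per the labels' protocols, and measured on an Illumina bead array. The values used are intensities that the authors deposited without normalisation, per the file headers. They are whole numbers that go below 0, so a background had been subtracted, by a method that neither labels nor headers record. Beside them the authors deposited a detection p-value for each probe and array, per the file headers. Column names show the genotype without a replicate number, so columns were assigned to groups only. The table of processed intensities deposited by the authors (median 21 in each column, linear scale) served only as an alternative.

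The neqc function (limma 3.58.1, R 4.3.3) corrected the background with an offset of 16, applied quantile normalisation and took log2. Probes were tested when detected (p below 0.05) in at least 3 arrays, 14067 of 25697. The difference, Dusp8-deficient minus control, came from lmFit and eBayes (two-sided), and p was adjusted by Benjamini-Hochberg over all tested probes. The brightest tested probe stood for a gene. Symbols came from the platform annotation, which named 23978 probes and left 1719 unnamed. The members, gene lists and tests were chosen with earlier results of these data known. Values of every array are given for the 8 members of smallest p, the tested core subunits and the genes with several probes. From the other lists the 3 genes of smallest p are named with their differences, beside Ppargc1a, Nrf1, Esrra and Cox6c, which were chosen after their values were seen. The steps were tested on simulated data in 20 runs. Samples are biological replicates per the labels, with no litter or slide stated. The number of arrays limits the precision.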

Additional observations from a re-analysis of the deposited data

Results flagged for a closer look

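Within the Dusp8-deficient group, 51 levels and list medians were examined for an array far from its 3 companions (Dixon's criterion). About 1 in 20 meets it by chance, or 2.5 of 51, and 4 did. The log2 level of Ndufa9 was 6.04 in ko_125, and 5.13 to 5.24 in its companions. The median deviation of the assembly factors was -0.19 in ko_108, against -0.038 to -0.015. The median deviation of the biogenesis regulators was 0.12 in ko_168, against -0.052 to -0.024. The median deviation of the proximal membrane arm was -0.12 in ko_125, against 0.05 to 0.08. Groups of 3, such as the controls, are not examined this way.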

How the results depend on the processing

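The number of complex I genes called was 0 under all alternatives run, and the smallest adjusted p of a member was 0.745. The median difference stayed between -0.035 and 0.084 log2 units, and 13 to 20 of the genes read above 0. The count of 1 call over all probes, Dusp8, became 0 without the filter on dim probes (log2 difference -2.52, adjusted p = 0.141), with each probe's own variance (-2.52, adjusted p = 0.411), and with the replicate block on replicates 1 to 3 of the processed values (-2.42, adjusted p = 0.122). It was 0 or 1 with 1 array left out (0 without ko_148, ko_168, wt_136, wt_145 or wt_177), with the Dusp8 difference between -2.65 and -2.40.

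Of 624 member values, 46 changed sign, in 13 genes whose difference was at most 0.155 in size. With 1 array left out, Ndufa4 ran from -0.29 to 0.001, Ndufa6 from -0.081 to 0.305, Ndufa8 from -0.10 to 0.14, Ndufb2 from -0.11 to 0.10, Ndufb4 from -0.18 to 0.049, Ndufb5 from -0.162 to 0.044, Ndufb6 from -0.29 to 0.03, Ndufb8 from -0.022 to 0.10, Ndufs1 from -0.24 to 0.20, Ndufs4 from -0.014 to 0.16, Ndufs6 from -0.027 to 0.14 and Ndufv2 from -0.039 to 0.067. With median scaling, Ndufa8 was 0.031, Ndufb2 0.024, Ndufb4 0.013 and Ndufs1 0.052. With array weights, Ndufa6 was -0.037, Ndufa8 0.11 and Ndufb8 -0.008. With replicates 1 to 3 of the processed values, with or without the replicate block, Ndufa6 was -0.059, Ndufa8 0.13, Ndufb6 0.029, Ndufb8 -0.025, Ndufs4 -0.014, Ndufs6 -0.024 and Ndufv2 -0.032. With the mean over probes, Ndufa5 was 0.036 and Ndufs4 -0.023. The cause was not tested. Same-numbered samples of the groups had correlations of their deviations of -0.07, 0.09 and -0.02, and differently numbered ones of -0.09 to 0.09. Such values cannot show whether same-numbered samples share a litter or day, which the labels do not state. Leaving out arrays for the other lists was chosen after seeing the data.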
